A study of Drosophila melanogaster with 2 samples.

Results

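Binding of Rx-eGFP was mapped on the X chromosome of whole Drosophila melanogaster embryos aged 0 to 24 h, where 640 of the 3303 peaks of the series-wide list lay. The peaks were chosen by chromosome alone: every row of the list whose name calls it conservative that lay on the assembled X was taken, and unplaced X scaffolds were left out. The embryos carried a transgene for an Rx-eGFP fusion protein, which was precipitated with an antibody against GFP from chromatin sheared by sonication to 200 to 800 bp. There was 1 group with 2 biological replicates, both from the same transgenic strain, and the sex of the embryos was not collected. Embryos without the tag, and the control experiment that the labels name as possible, were not analysed here, so each comparison is between X and the other large arms, 2L, 2R, 3L and 3R, within the same lists. Whole embryos pool all cell types, so weak binding in many cells and strong binding in few cannot be told apart.

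Rx is a paired-class homeodomain transcription factor, encoded by the retinal homeobox gene, which in flies is known for its expression and function in the embryonic head and brain. Homeodomains contact short AT-rich DNA words. The X of the fly is present as a single copy in males and as a pair in females, and in males its transcription is raised by a dosage compensation complex that is guided by the noncoding roX RNAs. The X also differs from the autosomes in sequence, for example by its content of simple CA repeats.

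The height of a peak is the signal value that the authors gave it, on a scale the files do not name, and a summit is the position of the highest signal in a peak. The irreproducible discovery rate (IDR) is a measure of how well a peak keeps its rank between replicates. All 640 peaks were found in the longer ranked list, with a −log10 global IDR of 2.00 to 5 and a median of 3.12. Replicate 1 had 492 X peaks of 2438 in its own thresholded list, replicate 2 had 444 of 2209, and the second thresholded list of the whole series had 673 of 3476. No file gives read counts, so the depth of either library is unknown. Intervals are 95% intervals that cover counting error only, and neighbouring peaks share genes and sequence, so a p-value over peaks describes these lists only, with no measure of how embryo batches vary.

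The sequences under the tallest X peaks, and under the highest peaks of the genes where X peaks crowd most, are shown as they stand in the RefSeq genome (Release 6, dm6 coordinates), on the forward strand, for 100 bp to each side of the summit. Bases of annotated UTRs are left out. The 3 highest peaks lay at Ugalt, which encodes a UDP-galactose transporter (X:2703853-2703982), at a promoter within ph-p, a Polycomb group gene (X:2137252-2137452), and in an intron of Tlk, which encodes the chromatin-associated Tousled-like kinase (X:3742123-3742323). None of these windows held the word ACAGTG, the motif that differed between X and the other arms, so they stand in lower case throughout.
Ugalt: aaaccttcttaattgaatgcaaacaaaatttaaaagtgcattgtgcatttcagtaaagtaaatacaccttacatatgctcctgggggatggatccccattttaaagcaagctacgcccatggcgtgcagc
ph-p: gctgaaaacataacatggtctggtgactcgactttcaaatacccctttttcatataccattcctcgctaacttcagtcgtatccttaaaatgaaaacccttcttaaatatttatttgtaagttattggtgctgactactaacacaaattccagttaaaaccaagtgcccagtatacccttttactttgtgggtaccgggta
Tlk: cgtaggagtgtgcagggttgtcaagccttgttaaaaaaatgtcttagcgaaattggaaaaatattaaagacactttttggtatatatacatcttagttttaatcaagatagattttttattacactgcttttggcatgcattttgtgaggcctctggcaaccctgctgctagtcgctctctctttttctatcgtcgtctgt

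The highest peak of the largest cluster lay in an intron of CHES-1-like, a forkhead family transcription factor gene (X:7700317-7700517), and the highest peak of the gene with most summits in an intron of kirre (X:3097127-3097327). The windows at NFAT, a transcription factor gene (X:13640418-13640618), and in the long noncoding RNA gene CR44619 (X:12752267-12752467) were chosen after their values were seen, to show where the word lies. Capitals mark ACAGTG or its reverse complement: the CHES-1-like window held 4 copies, the NFAT and CR44619 windows 2 each, and the kirre window none.
CHES-1-like: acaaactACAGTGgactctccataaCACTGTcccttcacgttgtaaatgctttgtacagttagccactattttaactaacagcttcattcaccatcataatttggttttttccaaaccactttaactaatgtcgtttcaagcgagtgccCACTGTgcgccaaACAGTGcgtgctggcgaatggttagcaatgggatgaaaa
kirre: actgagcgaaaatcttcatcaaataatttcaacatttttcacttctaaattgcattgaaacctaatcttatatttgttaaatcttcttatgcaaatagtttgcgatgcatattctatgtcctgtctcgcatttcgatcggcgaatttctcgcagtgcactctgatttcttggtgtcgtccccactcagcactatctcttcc
NFAT: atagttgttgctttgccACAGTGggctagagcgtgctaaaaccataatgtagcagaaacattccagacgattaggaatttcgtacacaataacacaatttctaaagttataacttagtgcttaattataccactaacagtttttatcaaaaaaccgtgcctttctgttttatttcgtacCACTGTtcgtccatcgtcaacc
CR44619: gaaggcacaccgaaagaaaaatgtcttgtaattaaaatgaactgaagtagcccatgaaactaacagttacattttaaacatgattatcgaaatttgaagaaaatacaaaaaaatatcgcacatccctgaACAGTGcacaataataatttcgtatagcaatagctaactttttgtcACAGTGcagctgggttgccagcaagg

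The highest X peak was also the highest on the 5 large arms. At Ugalt (X:2703748-2704020), with its summit 30 bp upstream of a start, the height was 1838 in the list made from both replicates, 1003 in replicate 1 and 836 in replicate 2. At ph-p (X:2137238-2137475) it was 1116, with 597 in replicate 1 and 523 in replicate 2. The Tlk peak (X:3742114-3742332), 2326 bp inside the gene from a start, had 827, with 474 in replicate 1 and 354 in replicate 2. Each of these heights was larger in replicate 1 than in replicate 2, and heights in a replicate are those of the highest peak there that overlaps.

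The next 9 peaks were spread over genes of several kinds. An intronic peak of CG32772 had 771, and the promoter of MFS10, a gene of the major facilitator transporter superfamily, had 695. Peaks of 601 and 554 lay in introns of CG3726 and of LPCAT, whose product remodels phospholipids. The promoter of TRAM, a gene for a membrane protein of the endoplasmic reticulum, had 566, and an intronic peak of NFAT had 552. The promoter of Atf3, a gene for a bZIP transcription factor, had 450. The remaining peaks of the 12 highest, 551 and 549, stood 929 bp apart in exons of the noncoding genes CR44619 and Vinr, with CG4004 as the nearest protein-coding start. Each of the 12 was also in the thresholded list of either replicate alone. The typical X peak was far lower: the median height was 93.8, with quartiles of 67.8 and 151, and the lowest was 2.67, at a peak that overlaps a higher one in CG1677.

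X carried slightly more peaks for its whole length than the other arms, a difference that was no longer called once close neighbours were counted as 1. There were 27.2 peaks per Mb on X against 23.9 per Mb on 2L, 2R, 3L and 3R together, a ratio of 1.14 (exact binomial test, two-sided, p = 0.00379). Whole arm lengths include stretches with almost no peaks. Each 1-Mb bin before 6 Mb on 2R, from 23 Mb on 3L and before 4 Mb on 3R held at most 1 peak. On X the bin from 22 Mb held 1. The median count per bin was 27 on X and 26.5 on the other arms, and the ratio was not recomputed without such stretches. Males carry 1 X and females a pair, so X dose and binding per copy of X cannot be told apart in these densities or in peak heights, since neither the sex of the embryos nor X coverage in a control was at hand. The ratio was 1.19 in the own list of replicate 1 and 1.19 in that of replicate 2. With 1 peak, the highest, kept from each run of summits with gaps of at most 2 kb, there were 512 X peaks, and the ratio was 1.05 (exact binomial test, p = 0.308). The ranked list from which the peaks were drawn had 1029 peaks per Mb on X and 1019 per Mb on the other arms, of which 2.64% on X and 2.34% on the other arms were in the thresholded list.

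Introns were the place where X stood apart. On X, 320 of 640 summits lay in introns (50%, 95% Wilson interval 46.1 to 53.9%), against 882 of 2604 on the other arms (33.9%, 32.1 to 35.7%), an odds ratio of 1.95 (Fisher's exact test, two-sided, adjusted p = 7.11e-13 over 7 location classes). Promoters, taken as 500 bp to each side of a protein-coding transcription start, held 36.7% of X summits against 44.2% of those on the other arms (odds ratio 0.73, Fisher's two-sided exact test, adjusted p = 0.00139). Intergenic sequence held 8.91% against 17.1% (odds ratio 0.47, Fisher's two-sided exact test, adjusted p = 3.27e-07). These 3 differences kept their direction and passed the threshold in the own lists of both replicates, where introns held 49.2% of X summits against 32.5% in replicate 1 and 49.1% against 31.2% in replicate 2.

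Exons held few X summits. Coding exons held 2 on X (0.313%) against 39 on the other arms (1.498%, odds ratio 0.21, adjusted p = 0.0275 by Fisher's exact test), and 3′ UTRs held 10 (1.56%) against 16 (0.614%, odds ratio 2.57, Fisher's two-sided exact test, adjusted p = 0.0336). Both calls rest on few peaks and were lost in some alternatives, such as a promoter of 1000 bp to each side. The coding peaks, named after their values were seen, were in w, the eye pigment transporter gene that lies within kirre, with 59.1, and in Snx27, a sorting nexin gene, with 58.2, and neither was in a replicate's own list. The tallest peaks in UTRs, also named after their values were seen, were 425 in the 3′ UTR of APC7, a gene of the anaphase-promoting complex, and 340 in the 5′ UTR of baz, a cell polarity gene. The shares in 5′ UTRs (0.938% against 0.538%) and other exons (1.56% against 2.19%) did not pass the test (Fisher's two-sided exact test, adjusted p = 0.302 and 0.356). For 5′ UTRs the difference in share did pass in the own lists, with 5 X summits against 5 in replicate 1 (odds ratio 3.93, Fisher's two-sided exact test, adjusted p = 0.0495) and 5 against 5 in replicate 2 (odds ratio 3.93, Fisher's two-sided exact test, adjusted p = 0.0413). Per Mb of 5′ UTR it passed in neither own list (exact binomial test, adjusted p = 0.0886 in replicate 1 and 0.107 in replicate 2).

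**Figure D1:**
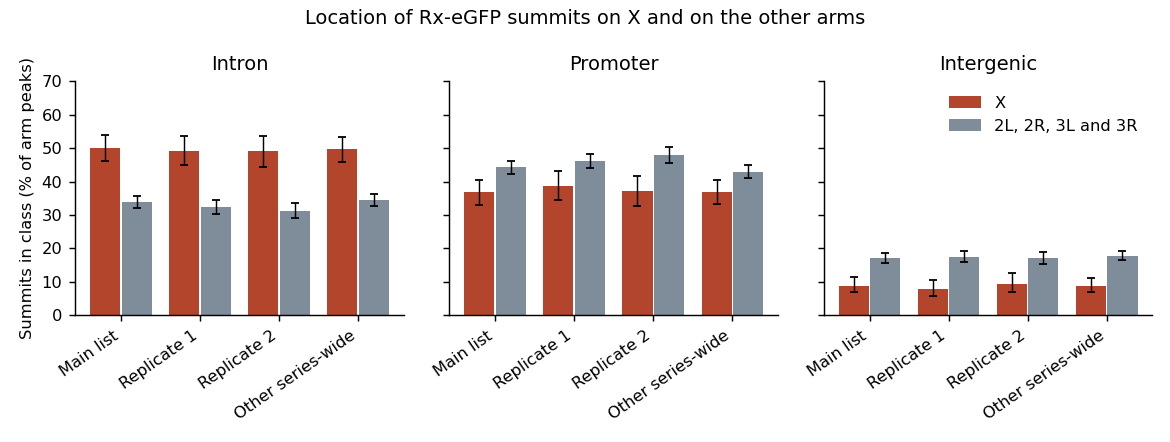
Share of summits in introns, promoters and intergenic sequence (y axis, % of the peaks on the arms) in 4 thresholded lists, on X (left bar of each pair) and on 2L, 2R, 3L and 3R together; error bars are 95% Wilson intervals. In each list the intron bar of X is the taller of its pair and the promoter and intergenic bars of X are the shorter, with 50% against 33.9% for introns in the main list.

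Shares sum to a whole, so the classes were also set against the bases that the annotation puts in each. Introns made up 43.7% of X against 39.0% of the other arms, and X had 31.1 intron peaks per Mb of intron against 20.7, a ratio of 1.501 (95% interval 1.32 to 1.71, exact binomial test, adjusted p = 1.14e-08). The ratio was 1.61 in replicate 1 and 1.67 in replicate 2. On single arms the intron density was 22.4 per Mb on 2L, 22.0 on 2R, 20.6 on 3L and 19.0 on 3R, all below the 31.1 of X. The bases of each class cover whole arms, with the stretches of 2R, 3L and 3R that have almost no peaks. The densities were not recomputed without these stretches, which lower the values of those arms. Promoter sequence carried 90.6 peaks per Mb on X and 91.2 on the other arms, a ratio of 0.994 (95% interval 0.860 to 1.14, exact binomial test, adjusted p = 0.972). Intergenic sequence had 10.5 against 14.1 per Mb, a ratio of 0.746 that did not pass the test after adjustment (exact binomial test, adjusted p = 0.0866) but did in the second series-wide list (ratio 0.714, adjusted p = 0.0309). By arm the intergenic density was 18.2 per Mb on 2L, 10.7 on 2R, 16.0 on 3L and 11.5 on 3R. The X value was thus close to those of 2R and 3R.

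**Figure D2:**
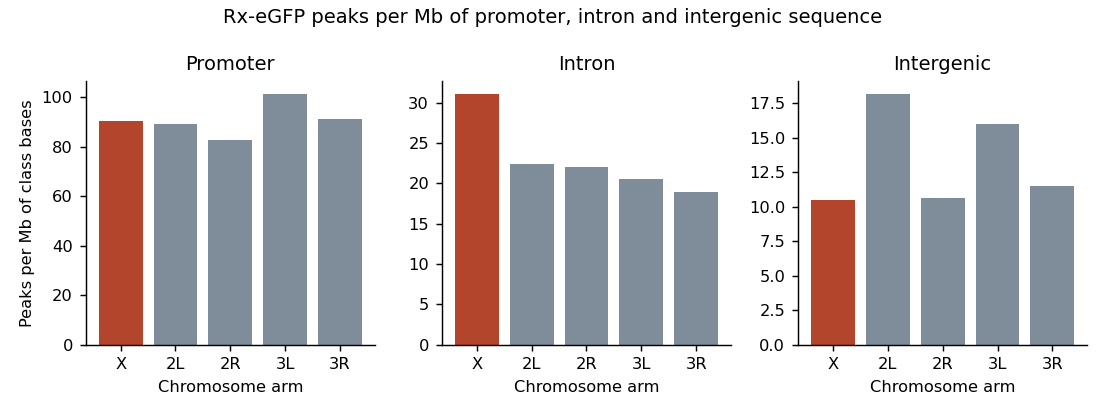
Peaks per Mb of promoter, intron and intergenic bases (y axes, each panel with its own scale) on X and on each of the other arms (x axis), in the main list. In the intron panel X stands at 31.1 per Mb and the other arms between 19.0 and 22.4; in the other panels the X bar lies within or just below the range of the other arms.

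A small number of genes held many of the intronic peaks. Summits in or within 2 kb of a gene with 8 or more of them numbered 73 on X, in 5 genes, and 26 on the other arms, in 3 genes. Without them introns held 46.2% of X summits against 33.3% (odds ratio 1.72, Fisher's two-sided exact test, adjusted p = 9.09e-08), and with the bases of these genes and 2 kb round them also left out, the ratio of intron peaks per Mb was 1.33 (exact binomial test, adjusted p = 0.000639). The promoter difference was then 39.7% against 44.6% (odds ratio 0.82, Fisher's two-sided exact test, adjusted p = 0.0495).

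Within introns, no difference in distance to starts between X summits and others passed a test. The median distance to the nearest protein-coding start was 2997 bp on X (quartiles 1420 and 7208 bp) and 3173 bp on the other arms. A start lay within 2 kb of 37.5% of X intron summits and of 38.8% of the others (odds ratio 0.95, Fisher's exact test, p = 0.737). The farthest X intron summit was 83479 bp from a start. Intron peaks on X had a median height of 92.0 against 84.1 on the other arms.

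Promoter peaks on X were less often at starts on both strands, the arrangement of divergent or overlapping gene pairs. Of 235 promoter peaks on X, 56 (23.8%, 95% Wilson interval 18.8 to 29.7%) had starts on both strands within 500 bp, against 462 of 1151 (40.1%) on the other arms (odds ratio 0.47, Fisher's exact test, p = 1.91e-06). The share was 21.6% against 42.1% in replicate 1 and 20% against 39.3% in replicate 2. Bases near starts on both strands made up 9.96% of promoter sequence on X and 11.2% on the other arms. Such bases carried 217 peaks per Mb on X and 328 on the other arms (ratio 0.661, 95% interval 0.492 to 0.874, exact binomial test, adjusted p = 0.00571). Promoter bases with starts on one strand carried 76.7 against 61.4 per Mb (ratio 1.25, 95% interval 1.05 to 1.47, exact binomial test, adjusted p = 0.00912). Most promoter summits lay upstream of the nearest start, 79.1% on X with a median position of 120 bp upstream, against 82.5% and 96 bp on the other arms.

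X peaks recurred in the replicates somewhat more often than others. In all, 350 X peaks (54.7%) overlapped a peak of both replicates' own lists, against 49.7% on the other arms (odds ratio 1.22, Fisher's two-sided exact test, adjusted p = 0.0410). A further 157 (24.5%) were in 1 own list against 24.5% on the other arms, and 133 (20.8%) were in neither against 25.8% (odds ratio 0.75, Fisher's two-sided exact test, adjusted p = 0.0238). With 1 peak per run of summits the call for both lists was lost (odds ratio 1.26, Fisher's two-sided exact test, adjusted p = 0.0633), and so was that for neither (odds ratio 0.82, Fisher's two-sided exact test, adjusted p = 0.139). The call for both lists was also lost among the higher 50% of peaks and when a single replicate's list was the start. Height went with support: of 160 peaks each, 159 in the highest of 4 equal groups by height were in both own lists, 130 in the next, 57 in the one after and 4 in the lowest. The 103 X peaks narrower than the common width of 284 bp had a median height of 266 and were all in both own lists, whereas the 536 of that width had a median of 85.1.

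The replicates gave the X peaks similar but not identical ranks. Over the 637 X peaks found in both replicates' ranked lists Spearman's rho across peaks was 0.791, against 0.763 over 2561 peaks on the other arms, a description only, since the main list was chosen on ranks in both. Heights were within a factor of 2 for 97.5% on X and 96.0% on the other arms. The median log2 ratio of replicate 1 over replicate 2 was 0.12 on X and 0.09 on the other arms, and replicate 1 was the higher in 58.6% of X peaks against 58.6% (Fisher's exact test, p = 1). The share of X peaks above the median height of all arm peaks was 51.9% against 49.5% (odds ratio 1.10, Fisher's exact test, p = 0.310).

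**Figure D3:**
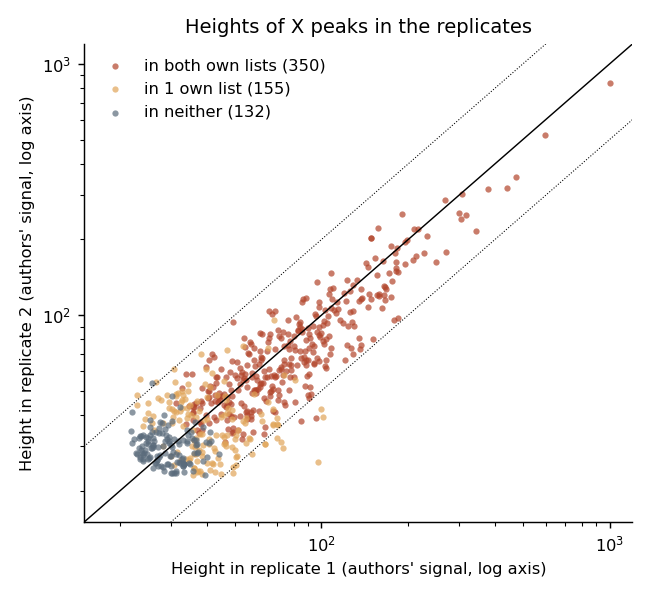
Height of X peaks in replicate 1 (x axis) and replicate 2 (y axis), both the authors' signal on log axes; each point is a peak found in both replicates' ranked lists, coloured by its presence in the replicates' own thresholded lists. The solid line marks equal heights and the dotted lines a factor of 2; 97.5% of points lie between the dotted lines, and peaks in neither own list sit at the low end.

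Neighbouring X summits were closer than those on the other arms. The median gap was 12.7 kb on X, against 15.9 kb on 2L, 17.7 kb on 2R, 14.2 kb on 3L and 18.0 kb on 3R. Gaps of at most 2 kb were 128 of 639 on X (20.03%), and between 10.8% and 15.6% of the gaps on the other arms. In replicate 1 they were 17.3% on X and 7.65 to 12.5% elsewhere, and in replicate 2 16.3% on X and 7.07 to 13.2% elsewhere. Gaps of at most 500 bp were not more common on X, at 2.97% against 3.31 to 3.80%. These shares were not tested, because gaps on an arm share their peaks.

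**Figure D4:**
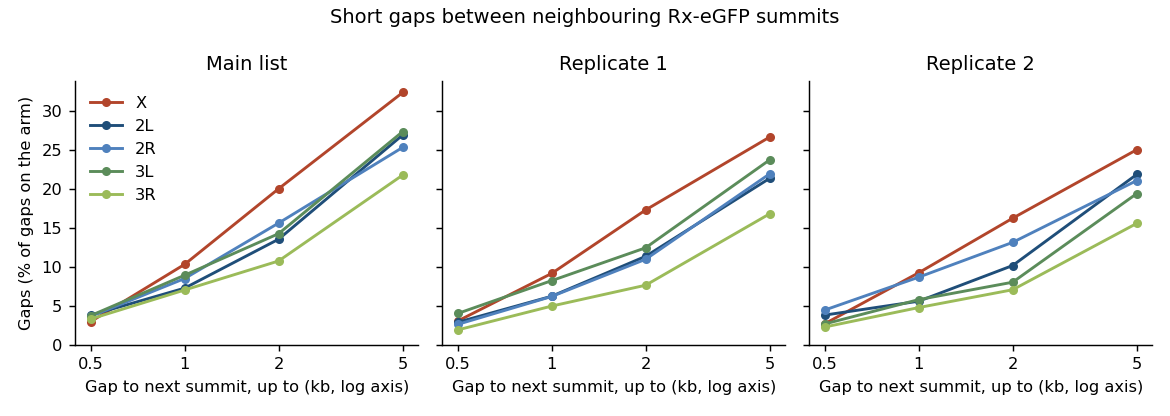
Share of gaps between neighbouring summits that are at most 0.5, 1, 2 or 5 kb (x axis, log scale; y axis, % of the gaps on the arm) for X and the other arms, in the main list and in the own list of each replicate. From 1 kb on the X line is the highest in each panel, with 20.03% of gaps up to 2 kb in the main list.

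Peaks were denser in the first 10 Mb of X than in the rest, though not at its very end. The first 10 Mb held 374 peaks (58.4%), 37.4 per Mb, against 19.6 per Mb in the rest. The cut at 10 Mb was not among the planned settings, and the other arms were not cut in this way. The rest includes sparse bins near its end, with 8 peaks from 20 to 21 Mb and 12 from 21 to 22 Mb. Of 23 full 1-Mb bins, 5 held 40 or more peaks, with 55 between 2 and 3 Mb, 44 between 3 and 4 Mb, 41 between 5 and 6 Mb, 53 between 6 and 7 Mb and 52 between 7 and 8 Mb. The bin at the telomere, from 0 to 1 Mb, held 14 and that from 4 to 5 Mb held 20, against a median of 27 over the X bins. Together the 5 dense bins held 245 peaks (38.3%) on 21.2% of the length and with 21.7% of the protein-coding genes. The bins were picked for their counts, so a peak share above their share of length was set by that choice. Summits in the dense bins were 54.3% intronic, against 47.3% in the rest of X. On the other arms 9 of 108 bins held 40 or more, with a highest count of 70, so dense bins were not confined to X. At the other end of X only 1 peak lay beyond 22 Mb, and the widest gap, 1120 kb, ran up to it. Over the 23 bins, Spearman's rho between the counts in the replicates' own lists was 0.941, and the main-list counts had 0.504 with the number of starts, 0.620 for promoter peaks alone and 0.357 for intron peaks. Bins share neighbouring genes and these values are descriptions.

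Clusters were defined as runs of 3 or more summits with neighbouring gaps of at most 2 kb. X had 19 clusters with 70 peaks (10.9%), against 13 on 2L (7.10%), 19 on 2R (10.9%), 16 on 3L (7.63%) and 7 on 3R (3.17%). In clusters 71.4% of X peaks were intronic, against 47.4% outside them. The median height was 96.7 in clusters and 92.7 outside, and 57.1% against 54.4% were in both own lists. These differences within X were not tested. In replicate 1 X had 12 clusters with 9.15% of its peaks, against 4 to 10 clusters with 2.29 to 6.31% on the other arms. In replicate 2 X had 10 with 7.21%, and 2R had more, 15 with 11.6%. The X count in the main list was 8 or 49 when gaps of at most 1 or 5 kb were allowed.

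The largest cluster held 9 summits across 9.89 kb of CHES-1-like (X:7697103-7706989). Its heights were from 60.5 to 304, and 7 of the 9 peaks were in both own lists. The highest, at X:7700312-7700476, had 304, with 145 in replicate 1 and 155 in replicate 2. A further cluster of 3 lay in the same gene with heights of 60.0 to 94.1. The second largest held 6 summits over 7.86 kb at the start of Raf, the kinase of receptor tyrosine kinase signalling (X:2296260-2304119), of which 5 were in both own lists. The highest of them had 437, with 233 in replicate 1 and 207 in replicate 2, and the next had 390, with 195 and 196.

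Clusters of 4 lay in ph-p, in Grip, a PDZ protein gene, and at 2 places of CG1677. That of ph-p spanned 3.42 kb with heights of 89.8 to 1116. That of Grip had heights of 57.1 to 71.4. None of its peaks was in both own lists, and 3 of the 4 were in that of replicate 1 alone. The CG1677 clusters had heights of 83.3 to 212 and of 2.67 to 262, the lowest belonging to the overlapping peak above. Clusters of 3 included Tlk, with 66.0, 126 and 827, and the Vinr region, where peaks of 194, 549 and 551 lay in exons of noncoding RNA genes within 1.40 kb. All 3 peaks at Tlk and all 3 at Vinr were in both own lists.

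The share of genes with a summit differed little between X and the other arms, and no difference passed the test. There was a summit in or within 2 kb of 589 of 2196 protein-coding X genes (26.8%, 95% Wilson interval 25.01 to 28.7%), against 3109 of 11669 (26.6%) on the other arms and 26.7% of all genes on the 5 arms (odds ratio 1.01, Fisher's exact test, p = 0.875). X genes were longer, with a median of 2.52 kb against 2.09 kb. Genes with 5 or more summits numbered 19 on X and 30 on the other arms, and genes with 8 or more 5 and 3. Among genes of 50 kb or more the mean was 2.33 summits on X (69 genes) and 1.55 on the other arms (236 genes), and among genes of 20 to 50 kb 1.29 and 0.904. Few genes weigh on these X means. The longer class held kirre, of 394 kb, with 22 summits, CG1677 with 16 and Hr4 with 11. The class of 20 to 50 kb held CHES-1-like with 13 and Raf with 11. On the other arms the most in any gene was 9. The means were not computed without these genes. Among genes under 2 kb the mean was 0.189 on X and 0.210 on the other arms.

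**Figure D5:**
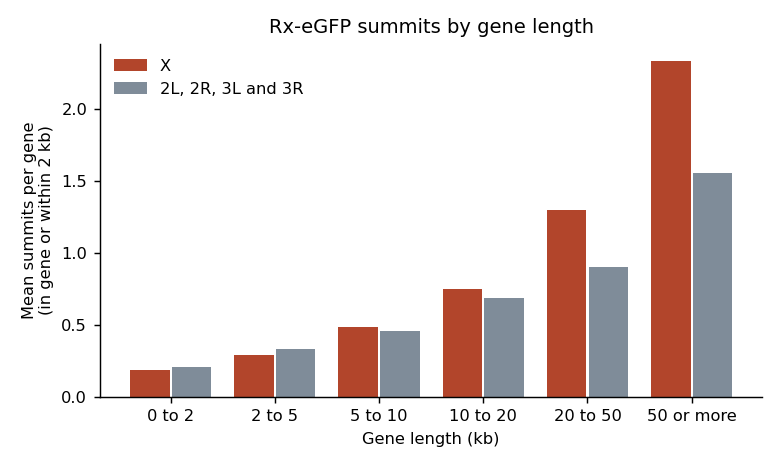
Mean number of summits in or within 2 kb of a protein-coding gene (y axis) by gene length class (x axis, kb), for X (left bar of each pair) and for 2L, 2R, 3L and 3R together, with no error drawn because genes share peaks. The X bar is the taller from 5 kb upward, with 2.33 against 1.55 summits in genes of 50 kb or more, and the shorter in genes under 5 kb. The X genes of 50 kb or more include kirre, with 22 summits.

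The X gene with most summits was kirre, which encodes an adhesion protein of muscle founder cells. It spans X:2740384-3134532 and had 22 summits, with 14 in replicate 1 and 13 in replicate 2. Its heights ran from 51.9 to 217, and 8 of the summits were nearest to a start of kirre itself, since other genes lie within it. CG1677 had 16 (X:7281089-7405797), and only 1 of these was nearest to its own start. CHES-1-like had 13 (X:7682338-7709385), 10 in each replicate, which is 4.81 per 10 kb of gene against 0.533 for kirre. Raf (X:2295466-2343870) had 11, with 11 in replicate 1 and 10 in replicate 2. Hr4, an ecdysone-responsive nuclear receptor gene (X:1941940-2007956), had 11, with 10 in replicate 1 and 6 in replicate 2.

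The other X genes with 5 or more summits had 5 to 7 each, among them genes of adhesion, signalling and chromatin. There were 7 summits each at dnc, a cyclic AMP phosphodiesterase gene, and at CG14434. There were 6 each at the integrin subunit genes mew and if, at Grip, at pigs, at CG43658 and at Ten-a, a teneurin gene of synaptic partner matching. There were 5 each at ph-p, at Mnt, a Myc antagonist gene, at Tlk, at the phosphatase gene Ptpmeg2, at the corepressor gene Smr and at hiw, a ubiquitin ligase gene that limits synapse growth. The highest peak of each of these genes was between 102 and 1116. At hiw the summits numbered 1 in replicate 1 and 1 in replicate 2.

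Lists of X-linked genes, chosen with earlier results of these data known, were counted against the 26.7% of all genes. Ribosomal protein genes had the highest count, 13 of 14, and RpL35 was the member without a summit. Their median length was 1.603 kb, and of X genes under 2 kb 16.3% had a summit. The highest peaks were at RpS28b (321, with 153 in replicate 1 and 169 in replicate 2), RpL22 (198, with 86.5 and 116) and RpS10b (162, with 68.8 and 104). The 233 beside RpS19a was nearest to a start of mthl1, and its own promoter had 168. RpS14a and RpS14b, which neighbour each other, share their peaks. Genes of adhesion and polarity followed with 6 of 8, the highest being 217 at kirre, 151 at dlg1, a septate junction scaffold gene, 125 at if and 84.7 at sdt, a gene of the apical Crumbs complex. These are long genes, with a median of 39.0 kb, and of all X genes a summit was in 53.5% of those of 20 to 50 kb and in 66.7% of longer ones, so the count is not read against the 26.7% alone. Chromatin genes, with a median length of 8.64 kb, had 6 of 9, and of X genes of 5 to 10 kb 34.2% had a summit. The highest peaks included 1116 at ph-p, 148 at ph-d and an intronic peak of 121 in Smr. A peak of 9.31 was counted for both ph-p and ph-d, which each had others. The peaks counted for trr, of 73.3 and 55.9, were nearest to starts of CG14818 and Coa8. The 262 within CG1677 was at a promoter of CBP, a gene inside it, and the peak nearest to a start of CG1677 itself had 80.9.

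Neuronal genes, with a median length of 42.8 kb, had a summit in 7 of 15 (46.7%), against 53.5% of X genes of 20 to 50 kb. The highest were 397 in an intron of norpA, the phospholipase C gene of phototransduction, 373 at a promoter of dnc, 337 at the promoter of elav, a neuronal RNA-binding protein gene, and 103 near shakB, an innexin gene. Each of these was in both own lists. Signalling genes, with a median of 17.9 kb, had 7 of 16 (43.75%), against 40.6% of X genes of 10 to 20 kb. Their highest peaks were 437 at Raf and 326 at the promoter of sgg, the GSK3 kinase gene. Next were 179 in an intron of N, the Notch receptor gene, and 147 in an intron of sog, a BMP antagonist gene.

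The lists nearest to early patterning were below the background of 26.7%, and that of dosage compensation and sex determination was above it, on few genes. Head, segmentation and proneural genes, with a median length of 3.11 kb, had 3 of 14 (21.4%), against 24.7% of X genes of 2 to 5 kb. These were N, sog and fog, and oc, btd, gt, run and the achaete-scute genes had none. Homeobox genes, with a median length of 17.3 kb, had 2 of 14 (14.3%), against 40.6% of X genes of 10 to 20 kb. These were Lim1 with 115 and ct with 113, both in introns and in both own lists. The list of dosage compensation and sex determination had 3 of 9 (33.3%). It includes the noncoding roX genes, which the background of protein-coding genes does not cover. Sxl, the switch gene of sex determination, had peaks of 120 in an intron (58.6 in replicate 1 and 62.9 in replicate 2) and 80.4 at a promoter. The peaks near roX2 and snf, of 50.9 and 48.8, were nearest to starts of nod and dhd, and neither was in an own list. Genes for roX1 and mof, the acetyltransferase of the dosage compensation complex, had no summit. Of 8 yolk and chorion genes, which are expressed in adult females, none had a summit.

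A single motif of 12 differed between X and other summit windows. That motif, ACAGTG, is a bare word and not the site of a named factor, and it was put among the 12 with earlier results of these data known, so its p is no independent support. The word was in 179 of 640 X windows (28.0%, 95% Wilson interval 24.6 to 31.6%) and in 20.6% of windows on the other arms (odds ratio 1.49, Fisher's two-sided exact test, adjusted p = 0.000976 over the 12). Among all 2080 words of its length the same counts gave an adjusted p of 0.0423 by Fisher's exact test, and in the second series-wide list none of the 2080 passed. In flanking windows centred 1000 bp to each side it was in 8.34% on X and 7.80% on the other arms. The word was more frequent on X in the own lists of replicate 1 (odds ratio 1.56) and replicate 2 (odds ratio 1.73). The X copies lay to the side of the summit: the nearest copy was within 50 bp in 8.28% of X windows and 8.95% of the others, and between 50 and 100 bp in 19.7% against 11.7%. The nearest copy was 51.5 bp from the summit in the CHES-1-like window, 80.5 bp in the NFAT window and 31.5 bp in the CR44619 window. In windows of 50 bp to each side the odds ratio was 0.95 (Fisher's two-sided exact test, adjusted p = 0.971), and within intron or promoter summits alone it was 1.23 and 1.40, neither past the threshold (Fisher's two-sided exact test, adjusted p = 0.896 and 0.195).

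Of the other motifs, searched on both strands, none differed at the summits past the threshold. TAATTA, the core word of many homeodomains, occurred in 14.5% of X windows and 15.7% of the others (odds ratio 0.91, Fisher's two-sided exact test, adjusted p = 0.755), against 12.1% and 11.9% in the flanks. The promoter motifs DRE (TATCGATA), 2.66% against 2.69%, and BEAF (CGATA, which lies within the DRE), 27.0% against 27.3%, stood close together, and M1BP (GGTCACAC) had 0.938% against 1.88%. GAGA (GAGAG) had 23.1% against 24.5%, and the GA repeat GAGAGAGA, which contains it, 1.41% against 1.46%. The CA repeat CACACACA was in 4.69% of X windows and 3.07% of the others, and in 7.84% against 4.44% of the flanks. The E-box CAGCTG had 7.34% against 10.3%, Zelda (CAGGTAG) 1.41% against 0.845%, the TATA box TATAAA 30.9% against 34.1% (past the threshold among the higher 50% of peaks alone, at 28.9% against 37.6%, with adjusted p = 0.0202 by Fisher's exact test) and the AT repeat TATATATA 3.59% against 3.19%.

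In the flanking windows 6 of the 12 motifs differed. The CA repeat (odds ratio 1.83, Fisher's two-sided exact test, adjusted p = 4.92e-05), the GA repeat (3.55% against 1.65%, adjusted p = 0.000372 by the same test) and the DRE (1.24% against 0.278%, Fisher's two-sided exact test, adjusted p = 0.000372) were higher on X. For the DRE this rests on 15 of 1211 X windows and 14 of 5041 others. GAGA (25.2% against 21.5%, Fisher's two-sided exact test, adjusted p = 0.0169) and the AT repeat (3.716% against 2.4995%, Fisher's two-sided exact test, adjusted p = 0.0475) were also higher in the X flanks. The E-box was lower there (7.27% against 9.88%, Fisher's two-sided exact test, adjusted p = 0.0151). None of these motifs differed past the threshold at the summits, and whether summit and flank differ in their X excess was not tested. Flanks of close summits can overlap, so 1 copy of a motif can be counted more than once, and close summits were more common on X.

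Of 2080 6-mers, 3 were more frequent in X windows past the threshold (0.144%) and 1 less frequent (0.0481%), by Fisher's exact test with adjusted p = 0.0423 for each. GCTACA was in 13.0% of X windows and 7.76% of the others, AACTAA in 25.3% and 18.2%, ACAGTG as above, and TTTAAA in 23.9% and 32.1%. The next in order did not pass. On the higher side they were GTTTCA (18.4% against 12.9%) and AAACTA (26.9% against 20.6%). On the lower side they began with GATTCC (2.66% against 5.68%) and AAGGAG (2.19% against 4.92%). In the second series-wide list 0 passed, and 163 had an unadjusted p under 0.05 there, against 155 in the main list. The median GC content was 36.8% in X windows and 36.3% in the others.

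Few X peaks resembled each other. Summit windows in which over 50% of the 25-mers recur in the genome numbered 3 on X (0.469%) and 6 on the other arms (0.230%, odds ratio 2.04, Fisher's exact test, p = 0.392). Alignment of the X windows to each other gave 2 pairs, both at promoters of ribosomal protein genes. RpL7A and RpL17 aligned over 104 positions with 86.5% identity on the same strand, and their peaks had heights of 136 and 152. RpS15Aa and RpS10b aligned over 109 positions with 75.2% identity on opposite strands, with heights of 152 and 162. All of these peaks were in both own lists.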

How the data were processed

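Chromatin immunoprecipitation with sequencing was done on Rx-eGFP embryos in 2 biological replicates. The authors deposited peak lists on dm6, per the labels, thresholded or ranked by IDR. Their peak height is a signal value of unstated scale, and the ranked lists also hold the authors' deposited −log10 global IDR. The deposited values of the summit offset give bp from the peak start. The read depth is unknown, and the aligner and peak caller were not given in the sources used here. In the ranked list of the whole series 8 columns of per-replicate values, not named by replicate, were not used.

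Summits were classed, in order, as promoter (within 500 bp of a protein-coding start), 5′ UTR, then coding sequence, then 3′ UTR, then any other exon, intron or intergenic, with Ensembl release 115, transposable elements left out. The highest peak end on each arm lay within its length in the RefSeq genome, from which sequences were read. Motifs, all 6-mers and repeated 25-mers were searched within 100 bp of each summit. X windows were aligned with blastn 2.17.0+ (at least 100 bp and 75% identity). Fisher's exact and exact binomial tests, two-sided, came from scipy 1.17.1 under Python 3.11.15, with Benjamini-Hochberg adjustment within each family and a threshold of 0.05, and were tested on simulated data. Support was an overlap of at least 1 bp with a peak of a replicate's own list.

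Named genes are those at the 12 highest X peaks, with 5 or more summits, at the 8 largest clusters, and at most 4 per gene list with the highest peak. The members, lists and tests were chosen with earlier results of these data known. Alternatives were other lists, single replicates, thresholds, windows, promoter sizes and comparison arms. Peaks per Mb of class bases, starts on both strands, the omission of genes with 8 or more summits and tests within one class were added after seeing the data.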

Additional observations from a re-analysis of the deposited data

Results flagged for a closer look

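Peaks outside the comparisons lay on unplaced X scaffolds, which the list keeps apart from the assembled chromosome. The X scaffold peaks numbered 53, on 48 scaffolds, and they were all of the unplaced peaks in the main list. Their median height was 67.5, with a range of 14.3 to 596, and the own lists held 27 such peaks in replicate 1 and 33 in replicate 2. The ranked list had 2640 peaks on unplaced scaffolds, of which 791 were on X, 1533 on Un and 316 on Y scaffolds.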

How the results depend on the processing

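The X excess of intron peaks, by share and per Mb, and the X deficits of intergenic and promoter shares and of promoter peaks with starts on both strands kept their direction and their side of the threshold in all alternatives run. The excess of peaks per Mb was lost with 1 peak per run (1.05). For peaks in both own lists the odds ratio was 1.18 to 1.24 with a replicate left out, 1.06 in the higher 50% and 1.26 with 1 peak per run, none past the threshold. Peaks in 1 own list had 0.966 in the second list, 0.952 in the higher 50%, 0.883 with 1 peak per run and 0.978 with 50% overlap, against 1.00.

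Promoter peaks per Mb had a ratio of 1.02 in the second list and 0.968 to 1.05 with a replicate left out, and intergenic peaks 0.714 in the second list, past the threshold. Genes with a summit had an odds ratio of 0.999 in the higher 50%, 0.984 without 2R and 0.998 with 1 peak per run. Repeated windows had 0.762 when over 20% of 25-mers counted, and no value with replicate 2 alone, whose other arms had none.

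Motifs that differed numbered 2 in the higher 50% and 0 with 50 bp to each side, in intron and in promoter summits. Of 6-mers, 0 were higher in the second list, the higher 50%, without 2R, with 50 bp, without repeated windows and in intron or promoter summits, where 0 were lower too except without 2R; with a replicate left out 0 to 2 were lower. At an unadjusted p under 0.05 there were 87 to 164 in these settings, against 155. Uncalled motifs crossed an odds ratio of 1. With a replicate left out the range was 0.719 to 1.01 for DRE, 0.910 to 1.00 for GAGA, 0.943 to 1.25 for the GA repeat and 0.972 to 1.08 for BEAF. DRE had 1.02 without 2R, 1.10 with 1 peak per run, 2.76 in introns and 1.16 in promoters. GAGA had 1.09 in the higher 50%, 1.00 with 1 peak per run and 1.09 in promoters. The GA repeat had 1.23 in the second list, 1.30 in the higher 50%, 2.04 with 50 bp and 1.16 in promoters. BEAF had 1.00 in the second list, 1.01 without 2R, 1.08 with 1 peak per run, 1.06 in introns and 1.13 in promoters. M1BP had 1.38 in introns and the TATA box 1.12 with 50 bp. ACAGTG had 0.946 with 50 bp. The clusters numbered 8 and 49 at gaps of 1 and 5 kb and 10 to 12 with a replicate left out, and similar pairs 1 at 85% identity. The causes were not tested. No paired analysis was possible because both replicates belong to 1 group. Depth is unknown, so no limit from it can be given.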
